A study of Mus musculus with 36 samples.

Results

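Cytochrome P450 genes were followed in the epididymal white adipose tissue (eWAT) of 36 male mice by RNA sequencing. The members were the protein-coding genes whose symbol is Cyp followed by a family number, a subfamily letter and a gene number, with the lanosterol demethylase Cyp51 left out. Of 24750 genes in the table, 74 met this rule, out of 94 protein-coding genes of the annotation that match it. They were sorted by the Pearson r of log2(normalized CPM + 1) with Alb, the gene of serum albumin, which hepatocytes secrete. The 12 groups of 3 mice were WT or CCL19-KI, fed a normal diet (ND), a 40% high-fat diet (HFD) or a 60% HFD, with or without a ligature around a molar to induce periodontitis. CCL19-KI mice carry Ccl19, a chemokine gene, knocked into the locus of the adipocyte gene Adipoq and were bred as a homozygous line, apart from the C57BL/6 WT mice. Feeding began at 6 weeks of age and lasted 10 weeks, the ligature was in place for the last 2 of them, and lymph nodes were removed from the fat before RNA was extracted.

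P450 enzymes are haem proteins that insert an oxygen atom into lipids, hormones and foreign compounds, with electrons passed on by the reductase Por, by cytochrome b5 or, in mitochondria, by ferredoxin. Subfamilies 2a to 2d and 3a mostly clear drugs and other foreign compounds, family 4 hydroxylates fatty acids, families 7, 8, 27 and 39 turn cholesterol into bile acids, and single members make or break down steroid hormones, vitamin D and retinoic acid. The liver holds most of these enzymes. Fat tissue is known for a smaller set, among them Cyp2e1 in adipocytes and Cyp1b1 in stromal cells.

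The 36 libraries held 11962228 to 21581595 reads (median 15573273), so 1 read was 0.0472 to 0.0834 CPM. Adipocyte genes marked every library as fat, with Adipoq at 300.1 to 3937 CPM and Plin1 at 192 to 2028 CPM. The hepatocyte list of 16 genes varied far more, and its sum ran from 17.1 to 43360 CPM. Alb lay at 5.55 to 13.4 CPM in 6 libraries and at 267 to 26901 CPM in the other 30. The 6 were all 3 of WT mice fed an ND without ligature, replicates 2 and 3 of CCL19-KI mice fed an ND with ligature, and replicate 3 of CCL19-KI mice fed a 60% HFD without ligature. In 2 of these 6, Ccl19 and its copy Gm2564 went against the label. The library labelled WT ND without ligature 2 had 19.2 CPM of Ccl19 and 41.9 CPM of Gm2564, and the library labelled CCL19-KI 60% HFD without ligature 3 had 0.687 CPM of Ccl19 and none of Gm2564. The other 17 WT libraries had 0.507 to 4.51 CPM of Ccl19, and the other 17 CCL19-KI libraries 5.57 to 34.6 CPM. Both libraries were kept under their labels, and results that rest on them are also given without them.

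Together the 74 members took 546 to 16580 CPM of a library, with a median of 4329 CPM. Cyp2e1, which oxidizes ethanol, ketones and small solvents, alone made up 21.3 to 85.7% of that sum (median 45.5%). Scaled by exon length, its mean level was 1249.9 CPM per kb. The fatty acid hydroxylases Cyp4a14 and Cyp4a10 followed at 149 and 136 CPM per kb, then Cyp3a11, the main Cyp3a of mouse liver, at 86.9, and the drug-metabolizing Cyp2d26, Cyp2d9 and Cyp2f2 at 78.0, 60.8 and 58.6 CPM per kb. Cyp4v3, another fatty acid hydroxylase, had 170.3 CPM on average and the narrowest range of these 8 genes (44.3 to 296 CPM), whereas Cyp3a11 ran from 0 to 2049 CPM and Cyp4a14 from 0.0613 to 2330.4 CPM. Only 25 of the 74 members had more than 3 reads in all 36 libraries. The number with more than 3 reads was 50 to 71 in the 30 libraries with higher Alb and 32 to 43 in the 6 with low Alb. Of the 74, 25 members had at most 3 reads in every one of the 6. The heat map of all 74 members shows the same 6 libraries as dark columns through its upper part.

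**Figure D1:**
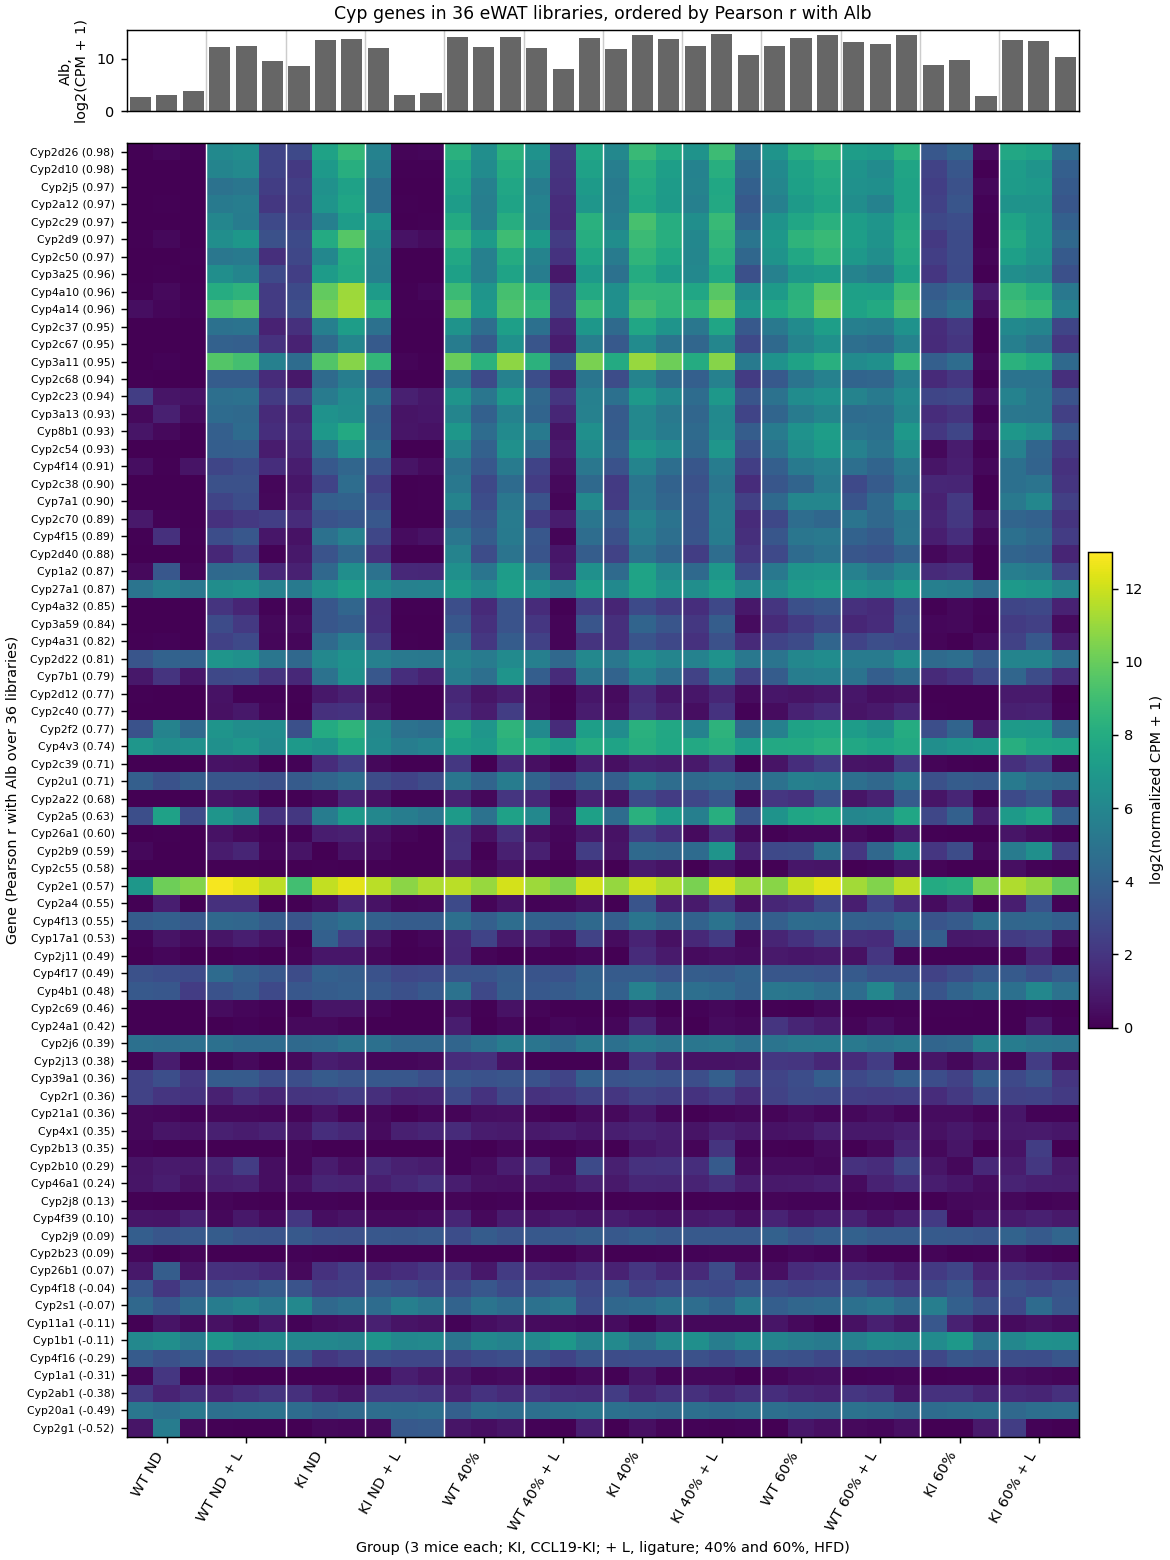
Level of 74 Cyp genes (rows, sorted by Pearson r with Alb, given beside each symbol) in 36 mice (columns, 3 per group), as log2(normalized CPM + 1) on the colour scale, with Alb on the same scale as bars above. The upper rows are dark in the 6 libraries with 5.55 to 13.4 CPM of Alb, while Cyp2e1, Cyp4v3, Cyp27a1 and Cyp1b1 are visible in every column.

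Most members rose and fell with Alb from mouse to mouse. Across 36 libraries, 20 of 74 members had an r of at least 0.9 with Alb and 30 one of at least 0.8. The median was 0.693, against -0.0882 over all genes tested, of which 1.38% reached 0.9. Since the 6 low libraries stand apart, r was also taken over the other 30, where 27 members reached 0.9, and after removing the means of the 12 groups, where 13 did. The 8 members highest in this order were Cyp2d26 (r = 0.98), Cyp2d10 (0.98), Cyp2j5 (0.97), Cyp2a12 (0.97), Cyp2c29 (0.97), Cyp2d9 (0.97), Cyp2c50 (0.97) and Cyp3a25 (0.96). Their r over the 30 libraries was 0.97 to 0.99. These correlations describe 36 mice that share groups and a normalization across libraries. They are the measure by which the genes were sorted, and the lowest of the 20 was Cyp2c38 (0.902) and the next gene below it Cyp7a1 (0.898).

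Cyp2d26 shows the pattern mouse by mouse. In mice fed an ND without ligature it was at 0.0544, 0.167 and 0.05 CPM in WT and at 6.27, 176 and 404 CPM in CCL19-KI mice. With ligature it was at 72.0, 82.3 and 5.42 CPM in WT and at 53.2, 0.123 and 0.184 CPM in CCL19-KI mice. The values below 1 CPM are those of the low-Alb libraries, and in the ligatured CCL19-KI mice fed an ND 1 library of 3 lay far above the others. Under a 40% HFD without ligature it was at 305, 86.4 and 328 CPM in WT and at 65.6, 445 and 248 CPM in CCL19-KI mice. With ligature it was at 98.1, 3.35 and 203 CPM in WT and at 103, 475 and 28.9 CPM in CCL19-KI mice. Under that diet the ranges of the genotypes overlapped with and without ligature. Under a 60% HFD without ligature it was at 106, 274 and 397 CPM in WT and at 10.7, 16.9 and 0.294 CPM in CCL19-KI mice. With ligature it was at 150.3, 133 and 322 CPM in WT and at 223, 187 and 22.2 CPM in CCL19-KI mice. Among unligatured mice the genotypes did not overlap under an ND or a 60% HFD, and their order turned between the diets.

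Some subfamilies lay close together in the order by Alb and others were spread over it. All 6 Cyp2d genes had r from 0.770 to 0.981, the 4 Cyp3a genes from 0.840 to 0.964, and 8 of 13 Cyp2c genes were at 0.9 or above. Among the 6 sterol and bile acid genes, Cyp8b1, which directs synthesis to cholic acid, had 0.926, Cyp7a1, the rate-limiting enzyme of bile acid synthesis, 0.898, and Cyp46a1, the cholesterol hydroxylase of neurons, 0.236. Family 4 was split, since Cyp4a10 (0.960) and Cyp4a14 (0.959) stood near the top and Cyp4f16 (-0.288) near the bottom of 14 genes, and the 11 other genes of family 2 ran from -0.515 to 0.974. None of the 4 Cyp2b genes, 2 vitamin D genes, 3 steroid hormone genes or 2 retinoic acid genes passed 0.6. Position on the chromosome went with this only in part (GENCODE M21 on GRCm38). The 12 Cyp2c genes at chr19:39007019-40187333 had r from 0.457 to 0.968 and the 6 Cyp2d genes at chr15:82370527-82794294 were all above 0.7. The 11 genes of families 2a, 2b, 2f, 2g and 2s at chr7:25802475-27133660 ran from -0.516 for Cyp2g1 to 0.974 for Cyp2a12.

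**Figure D2:**
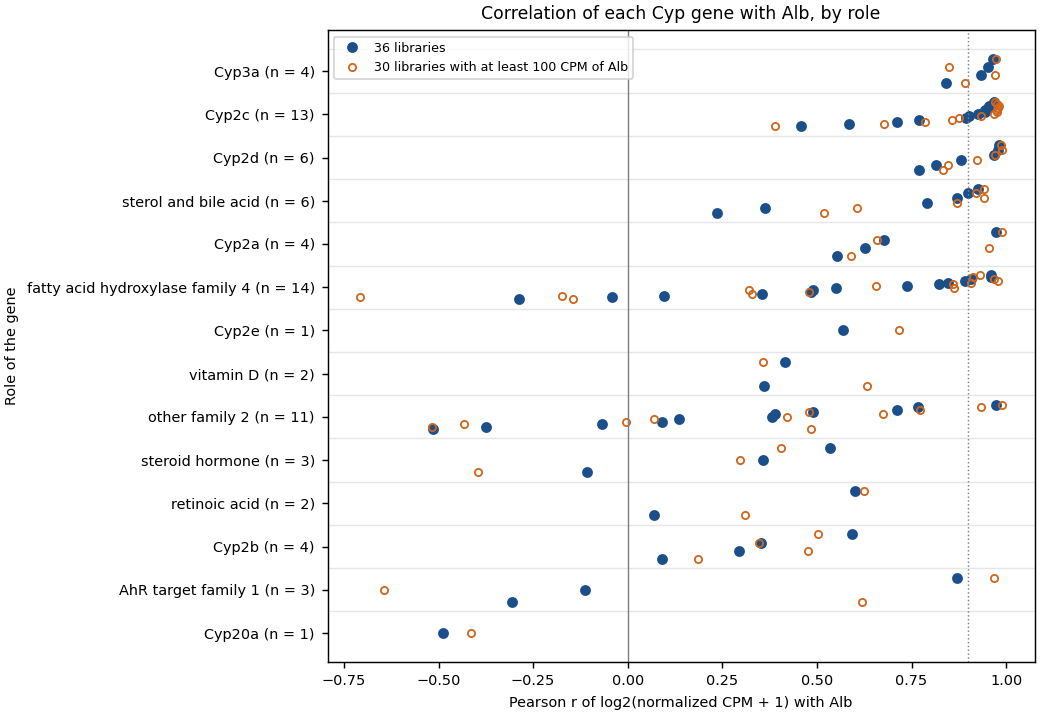
Pearson r of each Cyp gene with Alb (horizontal axis, from log2(normalized CPM + 1)) by role of the gene (vertical axis, with the number of genes), over 36 libraries (filled) and over the 30 libraries with at least 100 CPM of Alb (open). The dotted line marks 0.9, which 20 genes reach over 36 libraries. Cyp3a, Cyp2c and Cyp2d genes lie to the right, and Cyp1b1, Cyp20a1 and 7 more lie left of 0 over 36 libraries.

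Promoters are shown for members from the top, the middle and the bottom of this order, as the 120 bases before the transcription start (RefSeq, GRCm38.p6, written on the strand of the gene). Capitals mark CAAAGTCCA, the core letters bound by the hepatocyte factor Hnf4a, TATAAA, the TATA box, or GCGTG and its reverse complement, the core of the site of the aryl hydrocarbon receptor. Of 74 members, 57 had a promoter in the RefSeq table. The promoters printed are examples, and the shares over all 57 are given below them.
Cyp2d26, chr15:82794246-82794365, minus strand: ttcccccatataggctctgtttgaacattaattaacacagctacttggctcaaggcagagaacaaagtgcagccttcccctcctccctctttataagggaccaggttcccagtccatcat
Cyp3a11, chr5:145879855-145879974, minus strand: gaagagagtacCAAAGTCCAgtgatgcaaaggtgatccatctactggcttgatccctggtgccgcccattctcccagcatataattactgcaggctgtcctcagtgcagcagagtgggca
Cyp8b1, chr9:121916306-121916425, minus strand: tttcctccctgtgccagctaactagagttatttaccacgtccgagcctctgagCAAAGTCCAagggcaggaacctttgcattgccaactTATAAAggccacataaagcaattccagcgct
Cyp2c70, chr19:40187287-40187406, minus strand: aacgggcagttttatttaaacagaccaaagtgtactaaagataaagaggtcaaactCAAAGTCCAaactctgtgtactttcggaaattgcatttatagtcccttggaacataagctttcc
Cyp2e1, chr7:140763699-140763818, plus strand: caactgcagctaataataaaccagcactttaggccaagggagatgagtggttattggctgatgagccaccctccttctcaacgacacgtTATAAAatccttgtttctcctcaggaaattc
Cyp4v3, chr8:45333164-45333283, minus strand: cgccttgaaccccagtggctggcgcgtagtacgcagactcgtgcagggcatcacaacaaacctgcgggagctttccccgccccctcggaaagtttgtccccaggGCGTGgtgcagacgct
Cyp1b1, chr17:79715062-79715181, minus strand: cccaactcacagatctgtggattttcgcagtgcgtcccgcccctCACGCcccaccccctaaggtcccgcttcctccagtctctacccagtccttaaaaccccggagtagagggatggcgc

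In the 250 bases before the start, searched on both strands, CAAAGTCCA occurred in 7 of 57 members (12.3%) and in 0.451% of 27025 genes of the table. The 7 were Cyp2c40, Cyp2c67, Cyp2c68, Cyp2c69, Cyp2c70, Cyp3a11 and Cyp8b1, of which the 5 Cyp2c genes lie in one run on chromosome 19 and 4 of them, without Cyp2c70, share 62.0 to 72.6% of their 31-base words with other genes. TATAAA on the sense strand occurred in 24.6% of members and 8.94% of all genes. GCGTG on either strand occurred in 22.8% and 30.9%. GTTAATNAT (N is any base), searched for the hepatocyte factor HNF1, occurred in 1 of 57 members (1.75%) and in 0.866% of all genes. It occurred in 0 of the 16 members with an r of at least 0.9. The 16 members with a promoter and an r of at least 0.9 had a median GC content of 44.2%, against 51.6% in the 41 others and 52.4% over all genes. A match of letters is a description of the promoter and not a bound site.

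Some members were also present in the 6 libraries low in Alb. Cyp2e1 had an r of 0.57 with Alb over 36 libraries and 0.72 over the 30, and in the 6 low-Alb libraries it still ran from 116 to 2689 CPM. Cyp4v3 stayed within 44.3 to 116 CPM in those 6 libraries and within 73.0 to 296 CPM in the other 30. Cyp27a1, the mitochondrial sterol hydroxylase, had an r of 0.87 with Alb over 36 libraries and 0.94 over the 30, and was at 24.3 to 54.2 CPM in the 6 and at 39.9 to 181 CPM in the 30. Cyp1b1, a target of the aryl hydrocarbon receptor, was at 30.1 to 83.5 CPM in the 6 and at 30.6 to 123 CPM in the 30. For these 4 genes the ranges of the low-Alb libraries and of the others overlapped.

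The 8 tested members lowest in the order had other company. Each member was set beside 12 lists of marker genes of cell types, as the mean of their log2 values, and 51 of 74 members had their highest r with the hepatocyte list and 6 with the kidney tubule list. The share of all genes with their highest r in each list was not computed, so these counts are no result about Cyp genes in particular. Cyp2s1, an epithelial member with r = -0.07 with Alb, followed the mesothelial list (r = 0.912, rho = 0.834, and r = 0.902 after removing group means, 36 mice). Cyp1b1 (r = -0.11 with Alb) followed the adipose progenitor list (r = 0.669, rho = 0.619) and Cyp20a1 (r = -0.49), a member with no known substrate, the adipocyte list (r = 0.706, rho = 0.652). Without the 2 libraries farthest from the median of the list, these r values were 0.883, 0.574 and 0.672. Cyp4f18, a leukotriene hydroxylase of leukocytes (r = -0.04 with Alb), had 0.567 with the macrophage list and Cyp2ab1 (r = -0.38) 0.535 with the adipose progenitor list, whereas Cyp4f16 (r = -0.29) had no positive r above 0.5 with any list. These correlations are descriptions over mice that share groups and libraries.

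Single libraries set the level of a few members. Cyp2g1, known from the olfactory mucosa, was at 43.6 CPM in the library labelled WT ND without ligature 2 and at 11.3 and 12.1 CPM in replicates 2 and 3 of ligatured CCL19-KI mice fed an ND, and at 4.07 CPM or less in the other 33. Its r with Alb was -0.52, but rho was 0.126 and r over the 30 libraries was 0.48. The first of these libraries also held the highest values of Cyp1a1 (3.12 CPM) and Cyp26b1 (13.3 CPM), which degrades retinoic acid, together with 1532 CPM of Crisp1 and 325 CPM of Lcn5, both of the epididymis. Crisp1 was present at up to 9541 CPM in the library labelled CCL19-KI 60% HFD without ligature 3, where Cyp2g1 was at 0.883 CPM. Cyp11a1, which starts steroid synthesis by cleaving the side chain of cholesterol, had an r of 0.855 with the steroidogenic list, but rho was 0.081 and r fell to 0.018 without 2 libraries. It was at 10.7 CPM in replicate 1 of unligatured CCL19-KI mice fed a 60% HFD, with Cyp17a1 at 14.3 CPM, Hsd3b1 at 18.5 CPM and Insl3, a Leydig cell gene, at 41.9 CPM, and at 1.3 CPM or less in the other 35. Among the others, 6 members had their highest r with the kidney tubule list. They were Cyp2j11 (r = 0.933), Cyp2j13 (0.868), Cyp4b1 (0.793), Cyp2a4 (0.777), Cyp24a1 (0.777), the enzyme that inactivates vitamin D in the kidney, and Cyp2r1 (0.547). Kap, a kidney gene of that list, ran from 0 to 136 CPM. What part of these levels other cell types in the dissected fat hold was not tested, and in bulk tissue fewer cells of a type and less RNA per cell cannot be told apart.

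**Figure D3:**
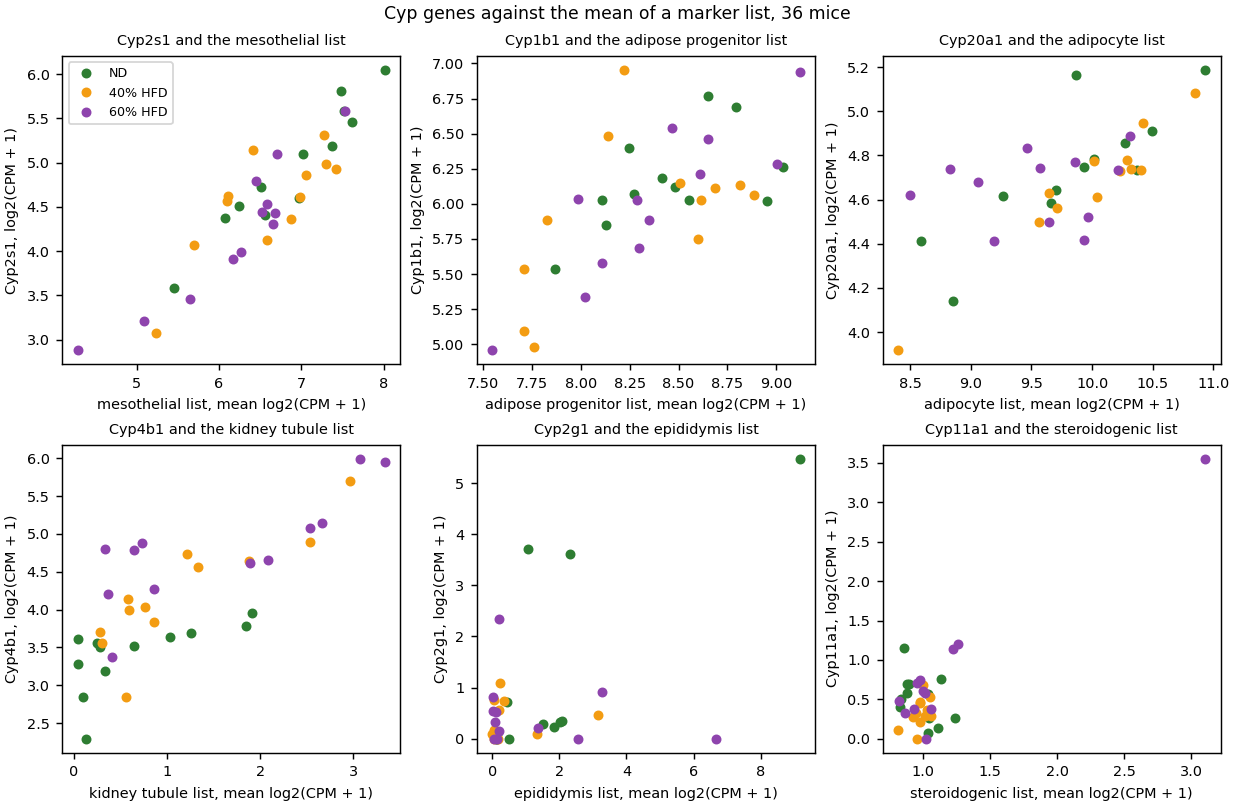
Level of 6 Cyp genes (vertical axes, log2(normalized CPM + 1)) against the mean level of a marker list (horizontal axes, same scale) in 36 mice, coloured by diet. Cyp2s1 rises along the mesothelial list over the whole range, while the high values of Cyp11a1 and Cyp2g1 come from 1 and 3 mice.

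The diet comparisons, averaged over the 4 combinations of genotype and ligature, concern whether feeding moved these genes. Of 74 members, 68 passed the filter (at least 1 CPM in at least 3 of 36 libraries). Under a 40% HFD 35 of 68 were higher than under an ND at an adjusted p below 0.05 (limma), and none was lower. Over all genes tested the share called was 9.21%, and 5.36% in the higher direction. With the 60% HFD 25 of 68 were higher and none was lower, against 18.6% of all genes called and 10.2% called higher. edgeR on the recovered reads called 38 and 25. Both diets were compared with the same 12 mice fed an ND.

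Under a 40% HFD the largest difference was that of Cyp3a11, which was at 0 to 1566 CPM (median 36.1) under an ND and at 13.9 to 2049 CPM (median 690) under a 40% HFD, a log2 difference of 3.90 ± 0.96 (SE, n = 12 against 12, adjusted p = 0.0141, limma). Cyp2c29 rose by 3.58 ± 0.81, Cyp2c50 by 3.52 ± 0.76, Cyp2d26 by 3.5 ± 0.78, Cyp4a14 by 3.39 ± 1.05 and Cyp2d9 by 3.38 ± 0.79 on the log2 scale (adjusted p = 0.00776 to 0.0409). The ranges of the diets overlapped for each of these genes, since ND-fed mice spanned the 5 low-Alb libraries and the mice with the highest Cyp4a14, Cyp4a10 and Cyp2d9 values of all. By role, 9 of 11 Cyp2c genes, 5 of 6 Cyp2d genes, 3 of 4 Cyp3a genes, 4 of 6 sterol and bile acid genes and 6 of 14 family 4 genes rose. The sorting by r with Alb used these same mice, and Alb itself was higher in this contrast, so a place high in that order is no separate evidence of a diet difference. The hepatocyte list moved in the same contrast, with 15 of 16 genes called higher. Its sum ran from 17.1 to 34978 CPM under an ND and from 544 to 43360 CPM under a 40% HFD.

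The smallest differences called under a 40% HFD were of genes lower in that order. Cyp2u1, which hydroxylates long-chain fatty acids, rose by 0.93 ± 0.18, Cyp4b1 by 0.82 ± 0.24 and Cyp27a1 by 0.75 ± 0.23 on the log2 scale (adjusted p = 0.00422, 0.0357 and 0.0429, limma). Cyp26a1, which degrades retinoic acid, was at 0 to 1.24 CPM under an ND and 0.190 to 4.21 CPM under a 40% HFD, and its rise was 0.71 ± 0.19. It was at 0 to 0.821 CPM under a 60% HFD, where it was not called. Cyp2d12 rose by 0.54 ± 0.15 and Cyp2r1, which activates vitamin D, by 0.45 ± 0.14. Cyp2e1 was at 116 to 7191 CPM under an ND, 1349 to 4667 CPM under a 40% HFD and 242 to 5646 CPM under a 60% HFD, and neither difference was called (0.40 ± 0.42 and -0.37 ± 0.42, adjusted p = 0.572 and 0.559, limma).

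Cyp4v3 had the smallest p of any member under both diets. Under an ND it was at 115, 80.9 and 90.4 CPM in WT mice without ligature, at 90.1, 112 and 73.0 CPM in WT mice with ligature, at 127, 102 and 209.7 CPM in CCL19-KI mice without and at 73.8, 44.3 and 53.7 CPM in CCL19-KI mice with ligature. Under a 40% HFD its 12 values ran from 136 to 296 CPM with a median of 223, and only 1 ND-fed mouse lay in that range. The rise was 1.20 ± 0.15 on the log2 scale under a 40% HFD (adjusted p = 0.000214, limma) and 1.02 ± 0.15 under a 60% HFD (adjusted p = 0.000103). Its r with Alb was 0.74 over 36 libraries and 0.65 over the 30.

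The diet differences were also computed with the hepatocyte list, which contains Alb, in the fit and without the low-Alb libraries, of which 5 of 6 are of ND-fed mice. Both settings rest on Alb in these same mice. A loss of calls there for members that follow Alb therefore cannot show why their levels differed, which was not tested. A negative difference given the list is not a fall in level. With the mean of the hepatocyte list as a covariate, 1 of 68 members was called under a 40% HFD (3.29% of all genes), and without the 6 low-Alb libraries 1 was (8.37%, averaged over 3 of the 4 combinations, since no unligatured WT mouse fed an ND was left). It was Cyp4v3 in both, with 0.83 and 1.13 on the log2 scale (adjusted p = 0.00904 and 0.00284, limma). With a 60% HFD and the covariate 13 members were called (12.2% of all genes), 6 with a positive and 7 with a negative difference. The 6 were Cyp2b9 (2.09), Cyp4b1 (1.22), Cyp4v3 (0.73), Cyp2u1 (0.69), Cyp2r1 (0.52) and Cyp2j9 (0.33), all called without the covariate as well. The covariate holds hepatocyte genes only, and Cyp4b1 and Cyp2r1 had their highest r with the kidney tubule list, whose part was not tested. The 7 were Cyp3a11 (log2 difference -2.01, adjusted p = 9.87e-06, limma), Cyp2f2 (-1.76), Cyp4a14, Cyp3a13, Cyp3a25, Cyp3a59 and Cyp2d22. None of these was called without the covariate, where all 4 Cyp3a genes were in the higher direction (median log2 difference 1.26). Without the 6 low-Alb libraries, 5 members were called (11.7%), namely Cyp4v3, Cyp2u1, Cyp4b1 and Cyp2b9 higher and Cyp2e1 lower (-1.71, adjusted p = 0.0242). Without the 2 libraries whose Ccl19 went against the label, 31 members (7.9% of all genes) and 23 (15% of all genes) were called under a 40% and a 60% HFD, and 31 and 22 of them were among those called with all mice.

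**Figure D4:**
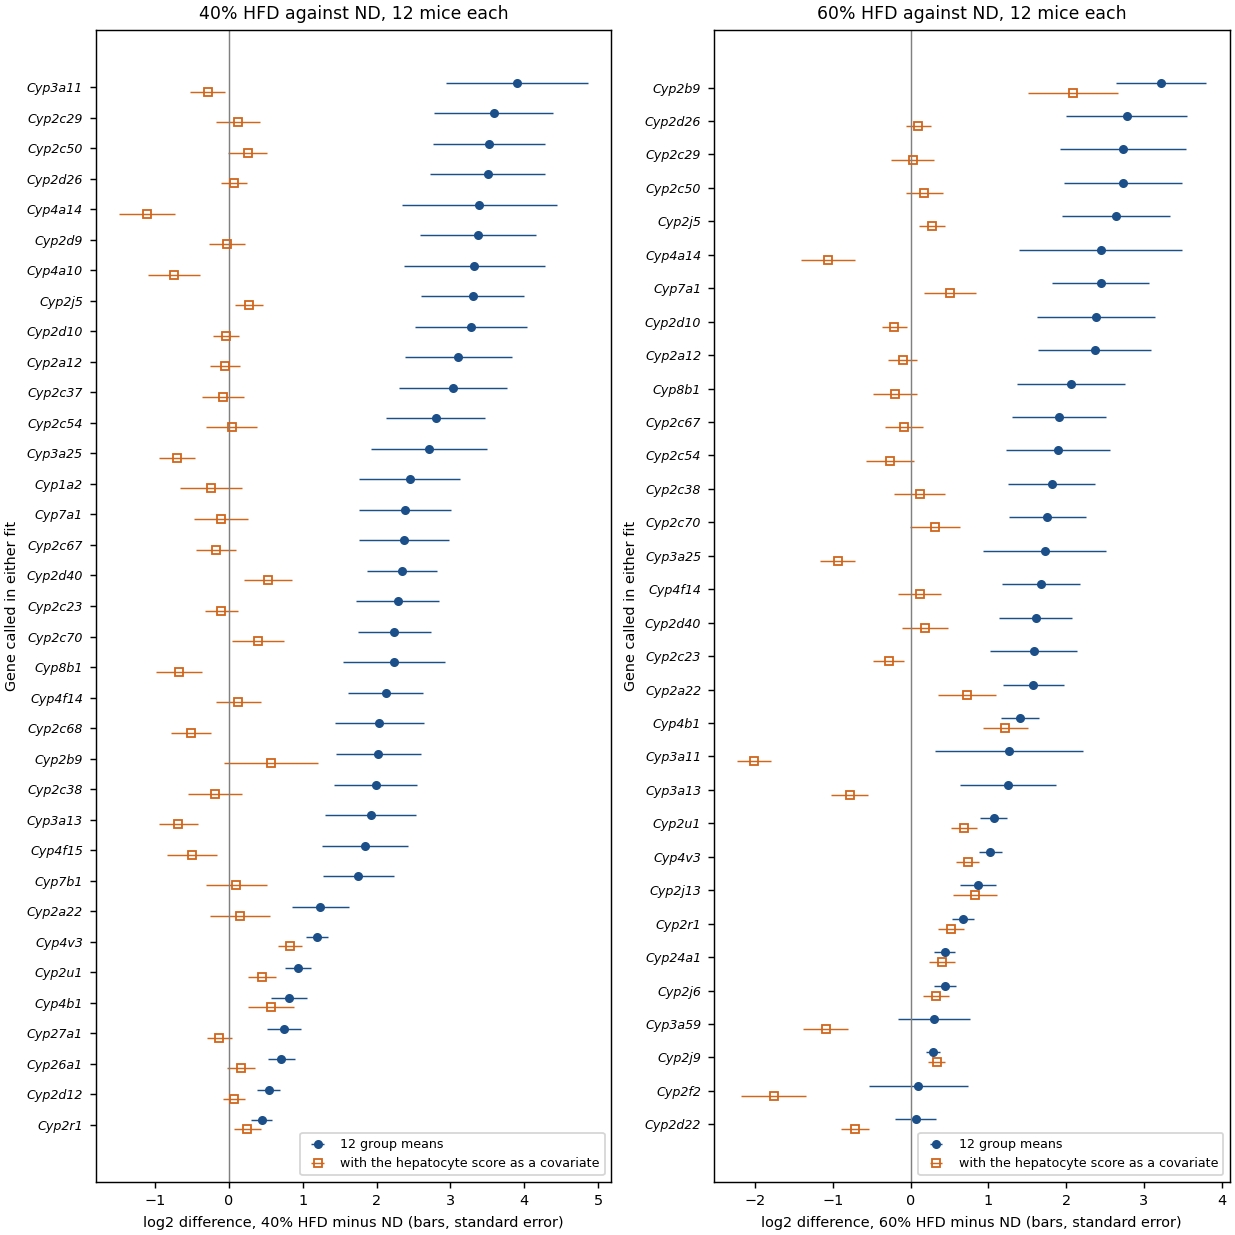
Log2 difference of Cyp genes under a 40% HFD and under a 60% HFD minus ND (horizontal axis, bars are standard errors, 12 mice against 12), from the group means and with the mean of the hepatocyte list as a covariate. With the covariate most points move towards 0, Cyp4v3 stays above it in both panels, and Cyp3a11 lies below it under a 60% HFD.

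Under a 60% HFD the member that rose most was Cyp2b9, a steroid and drug hydroxylase of the liver. Under an ND it was at 0 to 1.52 CPM with a median of 0.186, and under a 60% HFD at 0.245 to 88.3 CPM with a median of 6.99 (log2 difference 3.22 ± 0.58, adjusted p = 0.0008, limma). Under a 60% HFD without ligature it was at 6.24, 6.84 and 29.7 CPM in WT and at 3.18, 7.14 and 0.245 CPM in CCL19-KI mice. With ligature it was at 3.17, 19.7 and 78.7 CPM in WT and at 41.3, 88.3 and 4.17 CPM in CCL19-KI mice. These ranges overlapped between genotypes. Cyp2a22 rose as well, from 0 to 1.42 CPM under an ND to 0 to 12.4 CPM (1.58 ± 0.39, adjusted p = 0.0077). Of its 31-base words 34.6% are shared with Cyp2a12, and 26.1% of those of Cyp2b9 are shared with other genes, so reads of these genes may be divided among copies. Cyp4b1 rose by 1.41 ± 0.24 and Cyp2u1 by 1.07 ± 0.18. The other genes with the largest differences were Cyp2d26 (2.78 ± 0.78), Cyp2c29 (2.73 ± 0.81), Cyp2c50 (2.73 ± 0.76), Cyp2j5 (2.64 ± 0.69) and Cyp7a1 (2.44 ± 0.62). Those with the smallest were Cyp2j9 (0.29 ± 0.09), Cyp2j6 (0.44 ± 0.14), Cyp24a1 (0.44 ± 0.14), Cyp2r1 (0.67 ± 0.14), Cyp2j13 (0.87 ± 0.23) and Cyp4v3. None of the 4 Cyp3a genes was called under a 60% HFD, and Cyp3a11 was at 0.196 to 417 CPM (1.27 ± 0.96, adjusted p = 0.361, limma).

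**Figure D5:**
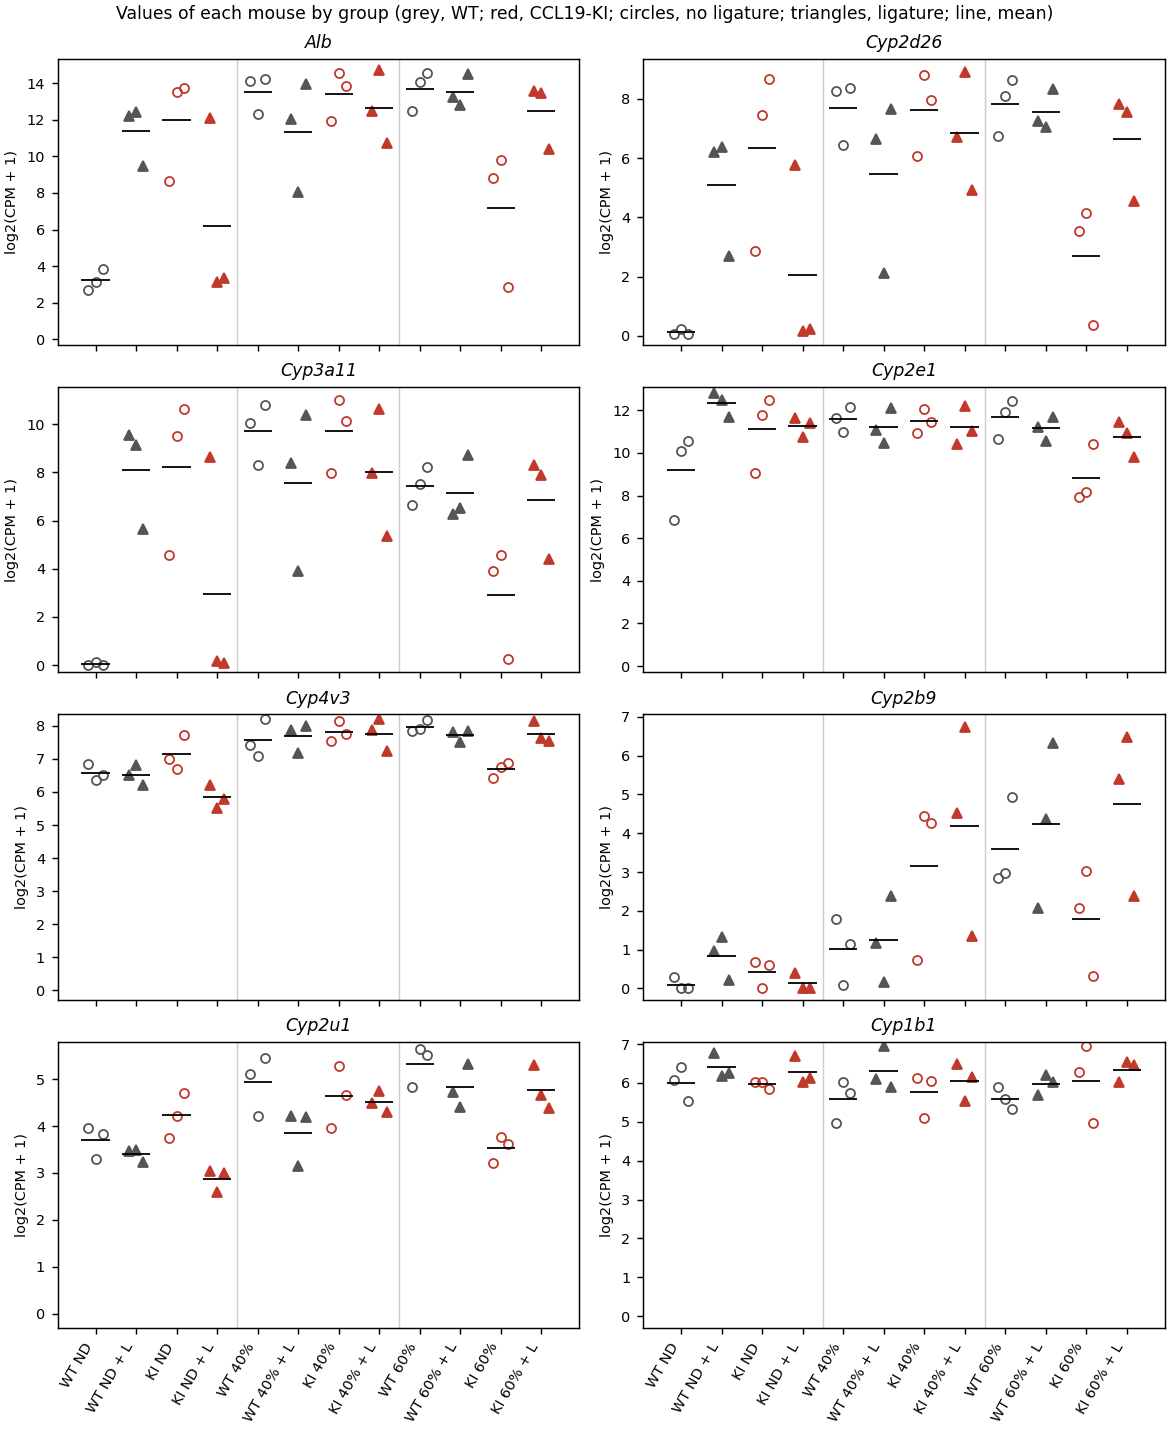
Level of Alb and 7 Cyp genes in each mouse (vertical axes, log2(normalized CPM + 1)) by group (horizontal axes, 3 mice each, grey for WT, red for CCL19-KI, circles without and triangles with ligature, lines for group means). Cyp2d26 and Cyp3a11 drop with Alb in the same groups, Cyp4v3 has a higher group mean under both HFDs than under an ND except in unligatured CCL19-KI mice under a 60% HFD, Cyp2b9 is below 2 CPM in every ND-fed mouse, and Cyp1b1 runs from 30.1 to 123 CPM.

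The partners of the P450 enzymes were read from lists of their own, beside the 9.21% and 18.6% of all genes called under a 40% and a 60% HFD. In both contrasts 15 of the 16 genes of the hepatocyte list were higher. Among 8 genes of electron supply and haem, only Cyb5r3, a reductase of cytochrome b5, rose under a 40% HFD (0.37 ± 0.10). Under a 60% HFD Cyb5b (1.15 ± 0.21), Cyb5r3 (0.49 ± 0.10), Fdxr (0.43 ± 0.14) and Hmox1 (0.67 ± 0.17) rose and Por fell by 0.53 ± 0.18 on the log2 scale (adjusted p = 0.0378, limma). Of 13 receptors and regulators, 7 rose under a 40% HFD, among them Hnf4a (3.14 ± 0.75), Nr1i3 (2.90 ± 0.67), Nr1i2 (2.00 ± 0.60) and Ppara (1.77 ± 0.53), which bind Cyp promoters in hepatocytes. With a 60% HFD 4 rose and Arnt, the partner of the aryl hydrocarbon receptor, fell by 0.32 ± 0.07. Of 21 genes of phase II and downstream metabolism 9 rose under a 40% HFD, led by Sult2a8 (3.92 ± 0.74). In the 60% HFD comparison 7 rose and Ces1d fell by 0.64 ± 0.21. The kidney tubule list held 3 of 9 genes called higher under a 60% HFD and none under a 40% HFD.

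The genotype comparison sets the CCL19-KI line against WT mice bred apart from it, so Ccl19 and the line cannot be told apart. Averaged over 6 combinations of diet and ligature, limma called none of 68 members (0.459% of all genes). Cyp46a1 was the only member at an unadjusted p below 0.05, at 0.344 to 2.39 CPM in CCL19-KI and 0.324 to 2.21 CPM in WT mice (0.28 ± 0.11, adjusted p = 0.21). edgeR called none. Without the 2 libraries against their label, 7.35% of all genes were called but again no member. For the named genes the averaged differences were -0.42 ± 0.34 for Cyp2e1, -0.22 ± 0.78 for Cyp3a11, -0.17 ± 0.12 for Cyp4v3 and 0.58 ± 0.47 for Cyp2b9 on the log2 scale.

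Within a diet and ligature state, 3 mice were set against 3, and members were counted at the criteria of the study, an unadjusted p no higher than 0.05 with a ratio of 1.5 or more, or of 0.67 or less. The p-values here are from limma, whereas the study used edgeR. In unligatured mice fed an ND, 38 of 64 members tested passed, 36 higher and 2 lower in CCL19-KI mice. Over all genes 20.7% passed, and 10.3% in the higher direction. Cyp3a11 was at 0, 0.111 and 0 CPM in WT and at 23.1, 717 and 1566 CPM in CCL19-KI mice (log2 difference 8.18 ± 1.37, adjusted p = 0.0192, limma). Cyp4a14 was at 0.381, 0.167 and 0.1 CPM in WT and at 7.64, 1184 and 2330.4 CPM in CCL19-KI mice (7.89 ± 1.67), and Cyp4a10 was at 0.0544, 0.278 and 0.05 CPM and at 6.56, 928 and 2184 CPM (7.79 ± 1.59). The WT values of Cyp3a11 and Cyp4a10 were 0 to 5 reads, so these differences rest on the pseudocount of 1 and are no bounds. All 11 Cyp2c, 6 Cyp2d and 4 Cyp3a genes tested were higher. Cyp2d12 had the smallest difference of those higher (0.68 ± 0.31, adjusted p = 0.174), while Cyp4f16 and Cyp20a1 were lower (-0.95 ± 0.27 and -0.67 ± 0.21).

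In unligatured mice fed a 60% HFD the direction was the opposite, and 42 of 64 members passed, all lower in CCL19-KI mice. Over all genes 19.9% passed, and 9.93% in the lower direction. Cyp2d9, whose levels in the WT mice were 117, 346 and 432 CPM, was at 3.47, 6.78 and 0.0491 CPM in CCL19-KI mice (-6.30 ± 1.28, adjusted p = 0.0397, limma). Cyp2c50 was at 100.2, 223 and 364 CPM in WT and at 4.38, 6.85 and 0.147 CPM in CCL19-KI mice (-5.79 ± 1.15), and Cyp2c54 at 29.6, 82.8 and 126 CPM and at 0.227, 1.01 and 0.0491 CPM (-5.65 ± 1.06). All 20 members with an r of at least 0.9 with Alb passed, as did 20 of 25 with an r from 0.5 to under 0.9 and 2 of 19 below 0.5. The sorting by r used these same mice, and Alb was itself at 5796 to 24132 CPM in WT and 6.38 to 890 CPM in CCL19-KI mice. These counts by r therefore follow in part from the sorting and are no separate evidence of a genotype difference. In these mice the adipocyte list was also lower, at 13645 to 17768 CPM in CCL19-KI and 25656 to 27720 CPM in WT mice. Cyp2e1 was at 1622, 3852 and 5646 CPM in WT and at 242, 285 and 1379 CPM in CCL19-KI mice (-2.84 ± 1.0, adjusted p = 0.103), and Cyp4v3 was at 227, 241 and 289 CPM and at 85.6, 107 and 116 CPM (-1.29 ± 0.30, adjusted p = 0.0426). Cyp2u1 differed by -1.80 ± 0.38 (adjusted p = 0.0416) and Cyp2a22 by -1.72 ± 0.60. The smallest differences were of Cyp2d12, at 0 in all 3 CCL19-KI and at 0.584 to 0.768 CPM in WT mice, Cyp2c40 (-1.07 ± 0.49) and Cyp2j13 (-1.21 ± 0.43). Cyp1b1 overlapped between the genotypes (39.4 to 58.1 CPM in WT and 30.1 to 122 CPM in CCL19-KI mice).

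Several marker lists moved with both results, the hepatocyte list among them. In unligatured ND-fed mice its sum was 17.1 to 19.3 CPM in WT and 689.8 to 34978 CPM in CCL19-KI mice, and under a 60% HFD it was 10151 to 42947 CPM in WT and 25.4 to 1560.1 CPM in CCL19-KI mice. In each case the ranges did not overlap. Besides the adipocyte list given above, under a 60% HFD the epididymis list was at 374 to 12737 CPM in CCL19-KI and 0.154 to 0.335 CPM in WT mice, and the kidney tubule list at 3.03 to 41.0 and 85.0 to 128 CPM. The sums of the B cell, endothelial and exocrine pancreas lists did not overlap there either. Under an ND the kidney tubule list was at 6.84 to 39.5 CPM in CCL19-KI and 0.326 to 3.34 CPM in WT mice, and the sums of the mesothelial and exocrine pancreas lists did not overlap. The adipocyte list there overlapped as a sum (12292 to 26270 CPM in CCL19-KI and 24678 to 48086 CPM in WT mice) but not as a mean of log2 values (8.59 to 9.66 and 9.87 to 10.93). The part of these lists in the results was not tested. With the list as a covariate 8 members passed under an ND (5.89% of all genes), all with a negative difference given the list. Under a 60% HFD 7 passed (13.2%), of which 6 had a negative difference given the list. Cyp4v3 was among these 6 at -1.0 (unadjusted p = 0.0339, adjusted p = 0.297, limma). Each comparison also holds 1 of the libraries whose Ccl19 goes against the label. Without both of these, 37 members passed under an ND (25.1% of all genes), 34 of them higher, and 40 under a 60% HFD (23.2%), of which 39 were lower and Cyp1b1 was higher, and 35 and 36 of these had passed with all mice. The remaining libraries of WT ND-fed mice, replicates 1 and 3, are low in Alb too. Without the 6 low-Alb libraries 39 members passed under a 60% HFD (22.4% of all genes), and under an ND no WT mouse was left.

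In the other 4 states few members passed. In unligatured mice fed a 40% HFD 2 did (2.19% of all genes), Cyp2b9 at 2.48, 0.0644 and 1.21 CPM in WT and 0.668, 20.9 and 18.3 CPM in CCL19-KI mice (2.14 ± 0.89, adjusted p = 0.953, limma) and Cyp2b10, a target of the receptor Nr1i3, at 0.0751, 0.322 and 1.06 CPM and 1.22, 2.61 and 2.76 CPM (1.12 ± 0.32, adjusted p = 0.953). In ligatured mice fed a 40% HFD 2 passed (1.56%), again Cyp2b9, at 1.24, 0.127 and 4.17 CPM in WT and 22.0, 105 and 1.54 CPM in CCL19-KI mice (2.96 ± 1.28, adjusted p = 0.884), and Cyp2u1 (0.66 ± 0.30, adjusted p = 0.907). Cyp2b9 thus overlapped between genotypes with and without ligature, and Cyp2b10 did not. For ligatured mice fed a 40% HFD the study, by edgeR, lists Cyp2a22 beside Cyp2b9 among its top upregulated genes. All 4 Cyp2a genes were in the higher direction there, but none, Cyp2a22 included, passed in this fit. The fit differs from that of the study and understates changes of low genes, so it does not decide the study's call of Cyp2a22. In ligatured mice fed a 60% HFD Cyp2s1 alone passed (2.1% of all genes), at 20.8 to 33.3 CPM in WT and 6.37 to 22.1 CPM in CCL19-KI mice (-1.16 ± 0.51, adjusted p = 0.987). The sum of the mesothelial list was 571 to 680.0 CPM in the former and 108 to 615 CPM in the latter, and these ranges overlapped, as did those of Cyp2s1. In ligatured mice fed an ND 4 passed (9.19%), Cyp3a11 (-5.14 ± 2.20), Cyp4f17 (-1.02 ± 0.28) and Cyp4v3 (-0.68 ± 0.28) lower and Cyp2g1 higher (2.52 ± 0.73, adjusted p = 0.089). Of the 3 CCL19-KI libraries there, 2 are low in Alb, and without the low-Alb libraries Cyp4x1 was the only member to pass (6.18% of all genes).

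Differences of the genotype effect were tested directly. Between a 40% HFD and an ND and between a 40% and a 60% HFD in ligatured mice, and between ligatured and unligatured mice over 3 diets, limma called none of the members (0.474%, 0% and 0.0056% of all genes called), with 3, 0 and 1 members at an unadjusted p below 0.05 and none called by edgeR. These percentages are of genes called at the adjusted p, and the share of all genes at that unadjusted p is not given. Between an ND and a 60% HFD in unligatured mice, a contrast chosen after the values were seen, 36 of 64 members differed (8.61% of all genes, 5.47% in the direction of a higher genotype effect under an ND). Without the 2 libraries against their label 27 did (4.1%), and with the hepatocyte list as a covariate none did.

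The ligature comparison, averaged over 6 combinations of diet and genotype, called none of 68 members by limma (0.325% of all genes) and 1 by edgeR. By limma 6 members had an unadjusted p below 0.05. That count is given without the share of all genes at that p and is not read as a ligature difference. Cyp2b10 was at 0.253 to 11.8 CPM (median 2.02) with and 0.0751 to 2.76 CPM (median 0.640) without ligature, a log2 difference of 0.81 ± 0.24 (adjusted p = 0.12). Cyp2r1 differed by -0.39 ± 0.12 (adjusted p = 0.119), Cyp1b1 by 0.40 ± 0.16 and Cyp2u1 by -0.35 ± 0.14. The ranges overlapped for each of these genes. Cyp2d26 was at 0.123 to 475 CPM with and 0.05 to 445 CPM without ligature (0.23 ± 0.64, adjusted p = 0.892).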

How the data were processed

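RNA of eWAT from 36 mice was sequenced as rRNA-depleted, strand-specific paired-end libraries. Per the labels and the study's methods, reads were trimmed with Trimmomatic 0.38, aligned with Bowtie2 within RSEM 1.3.0 and normalized with edgeR. The labels name the build GRCm39 and the methods mm10. The signal values the authors deposited are thus normalized CPM per gene. In each library they are whole multiples of 1 read (100% of values, tolerance 0.01), so reads were recovered. Of 24750 gene IDs, 24634 matched GENCODE M21, from which symbols and coordinates (GRCm38) were taken, and 116 have no symbol. Low genes have few reads, and 3 reads are 0.142 to 0.250 CPM. Reads of near-identical paralogs (Cyp2c40, Cyp2c67 to Cyp2c69, Cyp4a32, Cyp2a4 and Cyp2a5 share 54.6 to 72.6% of their 31-base words with other genes) are uncertain.

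Values were transformed to log2(normalized CPM + 1), which understates changes of low genes. Genes with at least 1 CPM in at least 3 libraries were fitted by limma 3.58.1 (lmFit, eBayes with trend, R 4.3.3) with 1 mean per group, over 36 mice for averaged comparisons (17852 genes) and over 18 ligatured (16653 genes) or 18 unligatured mice (16923 genes) for genotype within a diet. P-values were adjusted over all genes by the Benjamini-Hochberg method. The p-values measure the spread between 3 mice per group. edgeR 4.0.16 (quasi-likelihood) on the recovered reads was an alternative, which called 1905 genes for the 40% HFD and 3218 for the 60% HFD, where limma called 1645 and 3315. Other alternatives were the pseudocount, filters, scaling, sample weights, the hepatocyte mean as a covariate, a replicate block and leaving out each mouse. Leaving out the 6 libraries low in Alb or the 2 whose Ccl19 goes against the label was chosen after seeing the data. Scripts were tested on simulated data. Series text that speaks of a ligature in all groups was not followed where the label names none. Genes named are the 8 highest in mean level, the 8 highest and lowest in r with Alb, the 6 largest and smallest called differences of each averaged comparison and the 3 of each genotype comparison, plus Cyp2b9 and Cyp2a22. Others were named after their values were seen. The members, marker lists and comparisons were chosen with earlier results of these data known. The 8 highest in mean level were picked by CPM, and levels of Cyp genes are set against each other per kb of exons.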

Additional observations from a re-analysis of the deposited data

Results flagged for a closer look

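In unligatured mice the genotype effect on Cyp genes differed between an ND and a 60% HFD by a test of the difference itself (limma, contrast chosen after the data were seen). It was called for 36 of 64 members (8.61% of all genes). Each of the 36 had a higher effect of CCL19-KI under an ND (5.47% of all genes). The largest differences were 13.53 for Cyp4a14 (SE 2.37, adjusted p = 0.00411), 13.17 for Cyp4a10 (SE 2.25, adjusted p = 0.00376) and 12.97 for Cyp2d9 (SE 1.82, adjusted p = 0.0025) on the log2 scale. The smallest were 1.74 for Cyp24a1, 1.85 for Cyp4v3 and 2.33 for Cyp2u1. Values of 0 to 7 reads in unligatured WT mice fed an ND enter these differences, so their size depends on the pseudocount. Alb and the hepatocyte list moved with them in the same mice, and the difference for Cyp4a14 was -1.85 and that for Cyp2d9 1.42 with the list as a covariate, neither of them called. Without the 2 libraries whose Ccl19 goes against the label they were 12.17 for Cyp4a14 and 12.23 for Cyp2d9, and fewer members were called, as given above. Groups of 3 mice are too small to test for a single mouse that stands apart.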

How the results depend on the processing

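Counts of Cyp genes called under other settings, where they moved by over 1.5 times, were as follows. The share of all genes called at each setting is not set beside them here, nor below where single mice are left out. The counts show how calls moved with the setting and are no result about Cyp genes in particular. With the hepatocyte mean as a covariate they were 1 under a 40% HFD, 13 under a 60% HFD, 8 and 7 for genotype in unligatured mice under an ND and a 60% HFD, 21 and 4 in ligatured mice under an ND and a 60% HFD, and 0 for the ND against 60% HFD difference of genotype effects. Without the 6 low-Alb libraries they were 1, 5 and, in ligatured mice under an ND, 1. Sample quality weights gave 2 for genotype, 3 for ligature, 42 for 60% HFD, 38 and 2 for genotype in ligatured mice under an ND and a 60% HFD, 11 in unligatured mice under a 40% HFD, and 22, 8 and 55 for the differences of genotype effects between a 40% HFD and an ND, with and without ligature, and between an ND and a 60% HFD. For genotype under a 40% HFD the fit of all 36 mice gave 1 with and 0 without ligature, the fit of only the 2 groups 1 and 1, and a pseudocount of 5 gave 0 and 1. In unligatured mice there a pseudocount of 0.1 and a filter at a mean of 5 each gave 1. Further values were 24 in unligatured mice under an ND for the fit of only the 2 groups, 13 in ligatured mice under an ND for a pseudocount of 0.1, 0 in ligatured mice under a 60% HFD for quantile normalization and for edgeR, and 1 for ligature by edgeR. After group means were removed 13 genes had an r of at least 0.9. The cause was not tested.

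Leaving out each mouse gave 19 to 36 genes under a 40% HFD (19 or 20 without CCL19-KI ND ligature 2, without WT 40% HFD no ligature 3 or ligature 3, and without replicate 2 of CCL19-KI 40% HFD with or without ligature), 18 to 32 under a 60% HFD, 0 to 0 for genotype and 0 to 1 for ligature, and for genotype 30 to 44, 1 to 5 and 35 to 41 in unligatured and 2 to 18, 0 to 3 and 0 to 2 in ligatured mice under an ND, a 40% and a 60% HFD. The differences of genotype effects gave 0 to 1, 0 to 0, 0 to 0 and, for an ND against a 60% HFD, 29 to 43. In ligatured mice under an ND it was 18 without CCL19-KI replicate 1, 14 without WT replicate 3 and 2 without any of WT 1, WT 2, CCL19-KI 2 or CCL19-KI 3. Under a 40% HFD it was 0 in ligatured mice without WT 2, CCL19-KI 1 or CCL19-KI 2, and 4 and 5 in unligatured mice without WT 1 and CCL19-KI 1. In ligatured mice under a 60% HFD it was 0 without CCL19-KI 3 and 2 without WT 3. Replicate numbers did not pair the mice (same-numbered deviations correlated at -0.636 to 0.341, over 0.1 in 4 of 18 pairs), and with the replicate block 29, 23, 38 and 42 genes were called under a 40% HFD, under a 60% HFD and for genotype in unligatured mice under an ND and a 60% HFD.

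Among 1453 values of 52 single-gene results, 1218 kept direction and call, 220 lost the call, 1 gained it and 14 reversed. Log2 differences reversed with the covariate for Cyp3a11 (-0.29), Cyp4a14 (-1.10), Cyp2d9 (-0.022) and Cyp27a1 (-0.13) under a 40% HFD, for genotype in unligatured mice for Cyp4a14 (-0.90), Cyp4a10 (-0.39) and Cyp2d12 (-0.38) under an ND and for Cyp2d12 (0.032) and Cyp2c40 (0.46) under a 60% HFD, and for Cyp4a14 (-1.85) and Cyp4a10 (-1.15) in the ND against 60% HFD difference. Without the low-Alb libraries they reversed for Cyp4a14 under a 40% HFD (-0.068), Cyp2c29 under a 60% HFD (-0.016) and Cyp3a11 in ligatured ND-fed mice (0.53). The r of Cyp2g1 with Alb turned to 0.484 over 30 libraries and to 0.126 as rho. At this depth 25 members had at most 3 reads in each low-Alb library, and differences among them there were not detectable.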
